A study of Rattus norvegicus with 9 samples.

Results

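miR-204 and miR-211 are a pair of related miRNAs that are abundant in the pigmented epithelia of the eye, and they were followed here in whole rat retina. The members were taken by name, as every arm of either miRNA listed in the deposited tables, which gave 4 mature miRNAs (rno-miR-204-5p, rno-miR-204-3p, rno-miR-211-5p and rno-miR-211-3p, written below without the species prefix) of 465 in all. Small RNA came from the dissected retina of Sprague Dawley rats, all wild type, with 3 libraries in each of 3 groups. OIR P29 and OIR P14 are animals with oxygen-induced retinopathy, taken at postnatal day 29 and at postnatal day 14, and sham P14 is the sham control, also of postnatal day 14. In this rodent counterpart of retinopathy of prematurity, abnormal oxygen around newborn animals disturbs the growth of their retinal vessels. No control group of postnatal day 29 was analysed here, so age and stage of the retinopathy change together between OIR P29 and OIR P14. The labels describe biological samples in triplicate and do not give the number of animals behind each, so a p-value here reflects the spread between libraries, which may be technical.

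A miRNA is cut from a hairpin precursor that can yield a mature strand from each side, the 5p and the 3p arm. The arm that is loaded into an Argonaute protein guides it to target mRNAs, mainly through the seed, the bases near its 5′ end. miR-204 lies within an intron of Trpm3 and miR-211 within an intron of Trpm1, genes for cation channels of the TRPM family. Trpm1 carries the light response of retinal ON bipolar cells. In pigment epithelium both miRNAs are known to help keep the epithelial state, and a receptor for TGF-beta is among their reported targets in human pigment epithelium. miR-204 is also known from Müller glia, the ciliary body and the lens of the mouse eye. In retina as a whole, the RNA of these sources is mixed. In such bulk tissue, fewer cells of a type and less RNA per cell cannot be told apart.

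The mature sequences show which members can share targets. They are given 5′ to 3′ from RefSeq (build GRCr8, rat chromosome 1, plus strand), with the seed, bases 2 to 8, in capitals.
miR-204-5p: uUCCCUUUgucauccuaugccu
miR-211-5p: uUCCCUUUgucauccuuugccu
miR-204-3p: gCUGGGAAggcaaagggacguu
miR-211-3p: gGCAAGGAcagcaaaggggg
The 5p arms share the seed UCCCUUU and, over 22 bases, differ by 1 substitution, A17U (the base of miR-204-5p first, position counted from 1 at the 5′ end, then the base of miR-211-5p). No other mature rat miRNA of the RefSeq table had this seed. The 3p arms have different seeds, and 0 other miRNAs of that table shared either of them. How many mismatches were allowed when reads were counted is not known here, so reads with an error at position 17 could have been exchanged between the 5p arms.

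The hairpins place each pair of arms in 1 precursor, which matters for the arm comparison below. The mature arms are in capitals.
Mir204 (chr1:229743461-229743570, GRCr8): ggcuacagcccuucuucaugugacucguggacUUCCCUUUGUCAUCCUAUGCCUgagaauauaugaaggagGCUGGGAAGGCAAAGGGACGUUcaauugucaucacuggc
Mir211 (chr1:127189328-127189433, GRCr8): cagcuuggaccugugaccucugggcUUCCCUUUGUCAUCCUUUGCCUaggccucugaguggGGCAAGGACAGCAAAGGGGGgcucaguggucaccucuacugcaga
In the RefSeq gene table of that build, the first hairpin falls within the span of Trpm3 and the second within that of Trpm1.

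Total counts were 13088233 to 13973950 per OIR P29 library, 12694068 to 15260603 per OIR P14 library and 11808893 to 12568341 per sham P14 library. miR-182, a photoreceptor miRNA, took 59.3% to 61.7% of the reads in OIR P29, 65.1% to 68.1% in OIR P14 and 62.5% to 64.3% in sham P14, which marks the tissue as retina. Libraries are named by the codes of the tables, which carry no group name, and the group of each code follows from the table or tables in which it stands. Sham P14 library 25 stood apart in miR-204-5p: among 248 miRNAs with a mean of at least 10 CPM, miR-204-5p was the 1 miRNA that lay below 50% of both other sham P14 libraries there. OIR P29 library 47 had 3 miRNAs at over 2 times both other libraries of its group, miR-184, miR-31a-5p and miR-1247-5p, the first 2 of which are on the list of epithelial markers below. miR-184 also lay apart in OIR P29 library 20 (low), OIR P14 library 38 (low) and sham P14 library 51 (high), as did miR-145-5p in OIR P14 library 38 (high) and miR-29a-3p in sham P14 library 51 (low). The member results that change most without library 25 or 47 are given without them as well.

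The 5p arms were among the most abundant miRNAs of the retina and the 3p arms were scarce. CPM here is the count relative to library size, scaled with edgeR's TMM factors over all 9 libraries. miR-204-5p ranked 4th of 465 by mean level, between miR-183-5p (66208 CPM) and miR-26a-5p (13638 CPM), with a mean of 17230 CPM. miR-211-5p ranked 11th, with 6864 CPM, between miR-30d-5p (7257 CPM) and miR-22-3p (6702 CPM). miR-211-3p ranked 234th and miR-204-3p 327th, with means of 11.3 and 3.94 CPM. All 4 members had reads in all 9 libraries and passed the filter on low counts in both comparisons.

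miR-204-5p, the leading member, had 331480, 376810 and 336590 reads in the OIR P29 libraries, 238852, 233452 and 164184 reads in the OIR P14 libraries and 69678, 182492 and 167978 reads in the sham P14 libraries. On the CPM scale these were 24007, 26125 and 21855 in OIR P29, 18461, 18286 and 12823 in OIR P14 and 6095, 13769 and 13647 in sham P14. All 3 OIR P29 libraries lay above every library of postnatal day 14, while OIR P14 and sham P14 overlapped, since OIR P14 library 38 lay below sham P14 libraries 27 and 51. Group means were 23996 ± 2135 CPM in OIR P29, 16523 ± 3206 CPM in OIR P14 and 11170 ± 4396 CPM in sham P14 (SD, n = 3 each).

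miR-211-5p, which has the same seed, had 129493, 136741 and 143213 reads in OIR P29, 71527, 70908 and 71279 reads in OIR P14 and 71645, 78704 and 58619 reads in sham P14. Its levels were 9378, 9480 and 9299 CPM in OIR P29, 5528, 5554 and 5567 CPM in OIR P14 and 6267, 5938 and 4762 CPM in sham P14. The mean was 9386 ± 91.1 CPM in OIR P29, 5550 ± 19.8 CPM in OIR P14 and 5656 ± 791 CPM in sham P14 (SD, n = 3 each). The libraries of OIR P29 lay above all others, and the other groups overlapped. The small spread within OIR P14 depends on the scaling: as a plain share of reads, miR-211-5p took 0.469%, 0.490% and 0.562% of these 3 libraries.

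The 3p arms rest on few reads. miR-204-3p had 73, 91 and 88 reads in OIR P29, 66, 36 and 32 in OIR P14 and 18, 41 and 38 in sham P14, with group means of 5.77 ± 0.513, 3.47 ± 1.42 and 2.59 ± 0.875 CPM (SD, n = 3 each). Counting error alone gives an exact Poisson 95% interval of 10.7 to 28.4 reads for the 18 reads of sham P14 library 25 and of 25.2 to 49.8 reads for the 36 reads of OIR P14 library 12. OIR P14 library 11 held more miR-204-3p than the other libraries of its group, and on the CPM scale it stayed below the lowest OIR P29 library (5.10 against 5.29 CPM). miR-211-3p had 147, 171 and 140 reads in OIR P29, 155, 155 and 122 in OIR P14 and 129, 174 and 152 in sham P14, with means of 10.5 ± 1.39, 11.2 ± 1.46 and 12.3 ± 0.926 CPM (SD, n = 3 each). Its 3 groups overlapped.

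**Figure D1:**
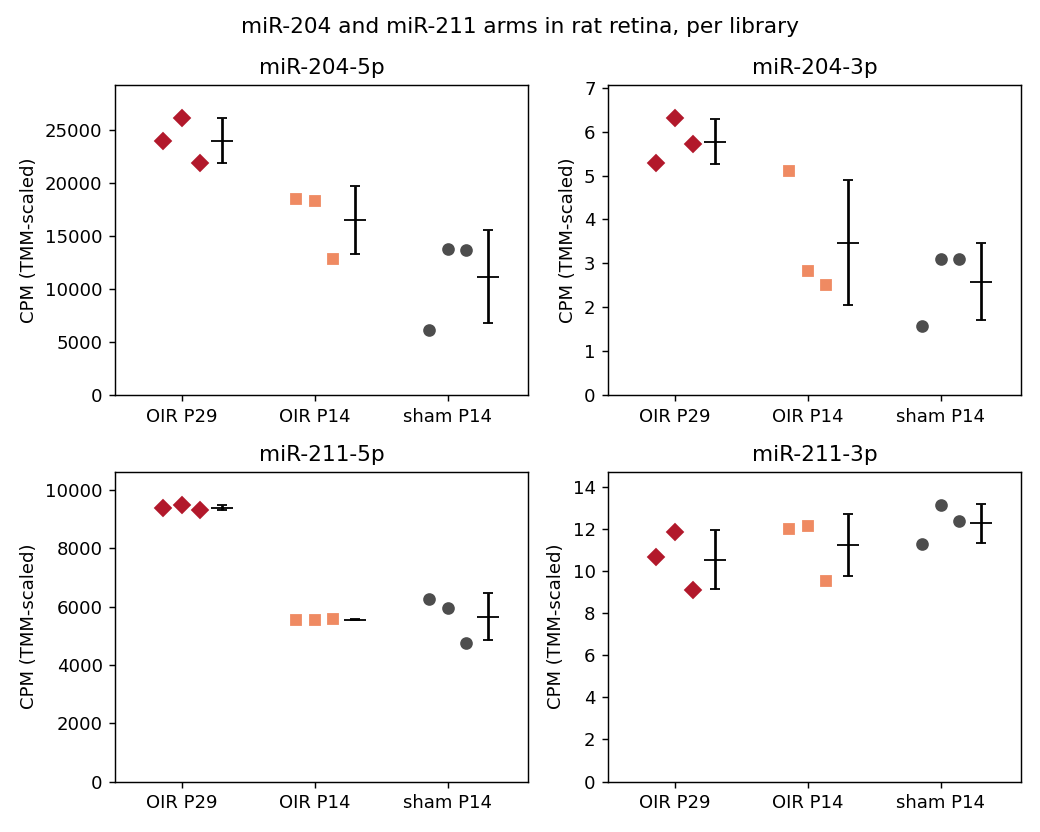
Levels of the 4 members in CPM (vertical axes from 0) in each library of OIR P29 (diamonds), OIR P14 (squares) and sham P14 (circles), with the group mean and SD beside the points (n = 3 each). Both 5p arms and miR-204-3p have all OIR P29 libraries above all OIR P14 libraries, while the groups of miR-211-3p overlap.

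Added together, the 5p arms with the shared seed took 3.61% ± 0.235 of all reads in OIR P29, 1.998% ± 0.128 in OIR P14 and 1.72% ± 0.464 in sham P14 (SD, n = 3 each). As levels this seed family stood at 33381 ± 2226 CPM in OIR P29, 22073 ± 3190 CPM in OIR P14 and 16826 ± 3921 CPM in sham P14 (SD, n = 3 each). miR-204-5p made up 71.8% ± 1.61 of the pair's reads in OIR P29, 74.5% ± 4.10 in OIR P14 and 64.4% ± 13.3 in sham P14 (SD, n = 3 each). The wide spread in sham P14 came with library 25, where miR-204-5p was 49.3% of the pair, against 69.9% and 74.1% in libraries 27 and 51.

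In sham P14 library 25 both arms of miR-204 were low and neither arm of miR-211 was. miR-204-5p stood at 6095 CPM there, 2.25 times lower than the mean of the other sham P14 libraries (13708 CPM), and miR-204-3p at 1.57 CPM, 1.96 times lower than their mean of 3.09 CPM. miR-211-5p was at its highest sham P14 level in this library (6267 CPM). miR-211-3p was at its lowest sham P14 level there (11.3 CPM), 1.13 times lower than the mean of the others.

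OIR P14 was set against sham P14 to ask how the retina differs with the retinopathy at 1 age. The data showed no call for any member, and the largest average difference was that of miR-204-5p. It stood 1.497-fold higher on average (log2 fold 0.58 ± 0.29 SE) and miR-204-3p 1.36-fold higher (0.44 ± 0.36 SE). miR-211-5p had a log2 fold of 0.00 ± 0.10 SE, and miR-211-3p of -0.10 ± 0.15 SE. With edgeR (quasi-likelihood F test, Benjamini-Hochberg over all miRNAs tested) the adjusted p was 0.565 for miR-204-5p, 0.706 for miR-204-3p, 0.990 for miR-211-5p and 0.841 for miR-211-3p. It called 0 of the 4 members, where it called 1.69% of all 415 miRNAs tested, all of them lower in OIR P14. After adjustment DESeq2 and limma-voom called 0 members as well. At an unadjusted p under 0.05 edgeR and limma-voom had 0 members and DESeq2 had 1, miR-204-5p, while edgeR had 9.16% of all miRNAs. The matching share for DESeq2 is not given here. After adjustment DESeq2 called 14 of all miRNAs, against 7 for edgeR. All 4 members overlapped between the groups, and 15.2% of all miRNAs did not (3.86% with OIR P14 higher and 11.3% with OIR P14 lower). By size of the rise, miR-204-5p stood 6th of the 415 miRNAs.

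The average for miR-204-5p rests in part on sham P14 library 25. Without it the log2 fold was 0.29 ± 0.16 SE (edgeR adjusted p = 0.643), against 0.58 with all libraries. Without OIR P14 library 38, the lowest of its group, it was 0.73 ± 0.33 SE (edgeR adjusted p = 0.431). For miR-204-3p the log2 fold was 0.06 without OIR P14 library 11 and 0.19 without sham P14 library 25.

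OIR P29 was set against OIR P14 to follow the members with age in the retinopathy. Both 5p arms were higher at P29. miR-211-5p was 1.66-fold higher (log2 fold 0.74 ± 0.06 SE, edgeR adjusted p = 0.000107) and miR-204-5p 1.43-fold higher (0.51 ± 0.15 SE, edgeR adjusted p = 0.0268), each in 3 of 3 OIR P29 libraries against every OIR P14 library. The log2 fold of miR-204-3p, 0.70 ± 0.28 SE, missed the threshold (edgeR adjusted p = 0.0729), although its groups did not overlap. The counting intervals of its nearest libraries, OIR P14 library 11 and OIR P29 library 20, did overlap. miR-211-3p had a log2 fold of -0.12 ± 0.15 SE (edgeR adjusted p = 0.564).

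With 2 of 4 members called higher, the share has to be read against a comparison in which 22.9% of 424 miRNAs were called higher and 23.8% lower, together 46.7%. At an unadjusted p under 0.05 edgeR had 3 of the 4 members and 55.4% of all miRNAs. Groups that do not overlap, with OIR P29 higher, were seen for 3 of the 4 members and for 30.2% of all miRNAs tested, with a further 27.1% lower in OIR P29 (57.3% in all). By size of the rise miR-211-5p stood 58th and miR-204-5p 88th of 424, and the median log2 fold of all miRNAs called higher was 0.78. Arms of 1 hairpin come from the same transcript, so the 4 members are not independent of each other.

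The call for miR-211-5p held in all 16 alternatives, with a log2 fold from 0.61 to 1.003 and an adjusted p of at most 0.000733. miR-204-5p was called in 13 of 16. It was not called with all 9 libraries fitted together (edgeR adjusted p = 0.0991), a fit whose spread includes sham P14 library 25. It was called when that library alone was left out of the joint fit (edgeR adjusted p = 0.00539). That fit of 8 libraries is among the 16 alternatives and was chosen after seeing the data. Why the joint fit lost the call was not tested. Quantile normalization set the log2 fold of miR-204-5p to 0 by construction, since this miRNA ranked 4th in all 6 libraries. Scaling on totals alone gave 0.80. The authors' deposited table gave miR-204-5p a log2 fold of 0.55 with a false discovery rate of 0.117, miR-211-5p 0.76 with 0.000144 and miR-204-3p 0.79 with 0.0423.

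**Figure D2:**
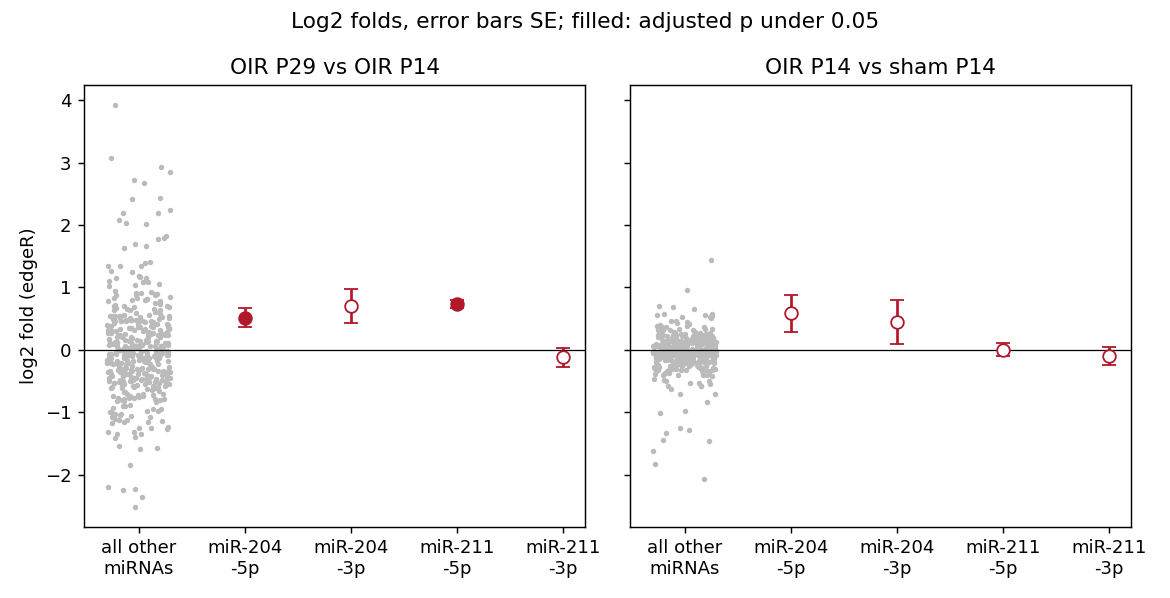
Log2 folds from edgeR (vertical axis) for OIR P29 over OIR P14 (left, 424 miRNAs) and OIR P14 over sham P14 (right, 415 miRNAs). Grey points are all other miRNAs, circles are the 4 members with SE bars, and filled circles have an adjusted p under 0.05, which holds for miR-204-5p and miR-211-5p in the left panel.

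The balance between the 5p arms was compared as a ratio within each library, which does not depend on library scaling. The count ratio of miR-204-5p to miR-211-5p was 2.56, 2.76 and 2.35 in OIR P29, 3.34, 3.29 and 2.30 in OIR P14 and 0.973, 2.32 and 2.87 in sham P14. miR-204-5p outnumbered miR-211-5p in 8 of 9 libraries, the exception being sham P14 library 25. The mean log2 ratio was 1.35 ± 0.115 in OIR P29 and 1.55 ± 0.304 in OIR P14 (SD, n = 3 each), a difference of -0.20 (exact 2-sided permutation p = 0.4). Between OIR P14 and sham P14 (0.90 ± 0.826, SD, n = 3) the difference was 0.66 (exact 2-sided permutation p = 0.3), and 0.19 without library 25. With 3 libraries against 3 the smallest p this test can give is 0.1, so no ratio could pass a threshold of 0.05.

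Within the miR-211 hairpin the 5p arm was called higher at P29 and the 3p arm was not called. The count ratio of miR-211-5p to miR-211-3p was 881, 800 and 1023 in OIR P29, 461, 457 and 584 in OIR P14 and 555, 452 and 386 in sham P14. All OIR P29 libraries lay above all libraries of postnatal day 14. The mean log2 ratio was 9.80 ± 0.179 in OIR P29 and 8.95 ± 0.200 in OIR P14 (SD, n = 3 each), a difference of 0.85 with an exact 2-sided permutation p = 0.1, the smallest it can give. Leaving out any 1 library gave 0.75 to 0.96. Between OIR P14 and sham P14 (8.84 ± 0.263, SD, n = 3) the difference was 0.12 (exact 2-sided permutation p = 0.5).

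As a share of the hairpin's reads, miR-211-3p made up 0.112% ± 0.0137 in OIR P29, 0.202% ± 0.0268 in OIR P14 and 0.220% ± 0.0395 in sham P14 (SD, n = 3 each). Counting error is not negligible at such shares. The highest OIR P29 library, 21, had an exact 95% binomial interval of 0.107% to 0.145%, and the lowest OIR P14 library, 38, one of 0.142% to 0.204%, so the intervals of these 2 libraries met.

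For miR-204 the arm ratio overlapped between all groups. The count ratio of miR-204-5p to miR-204-3p was 4541, 4141 and 3825 in OIR P29, 3619, 6485 and 5131 in OIR P14 and 3871, 4451 and 4420 in sham P14. Its mean log2 ratio differed by -0.24 between OIR P29 and OIR P14 (12.01 ± 0.123 and 12.25 ± 0.419, SD, n = 3 each; exact 2-sided permutation p = 0.5). Between OIR P14 and sham P14 (12.02 ± 0.126, SD, n = 3) it differed by 0.23 (exact 2-sided permutation p = 0.5). The 3p arm was 0.0241% ± 0.00206 of the hairpin's reads in OIR P29, 0.0208% ± 0.00622 in OIR P14 and 0.0236% ± 0.0019 in sham P14 (SD, n = 3 each).

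**Figure D3:**
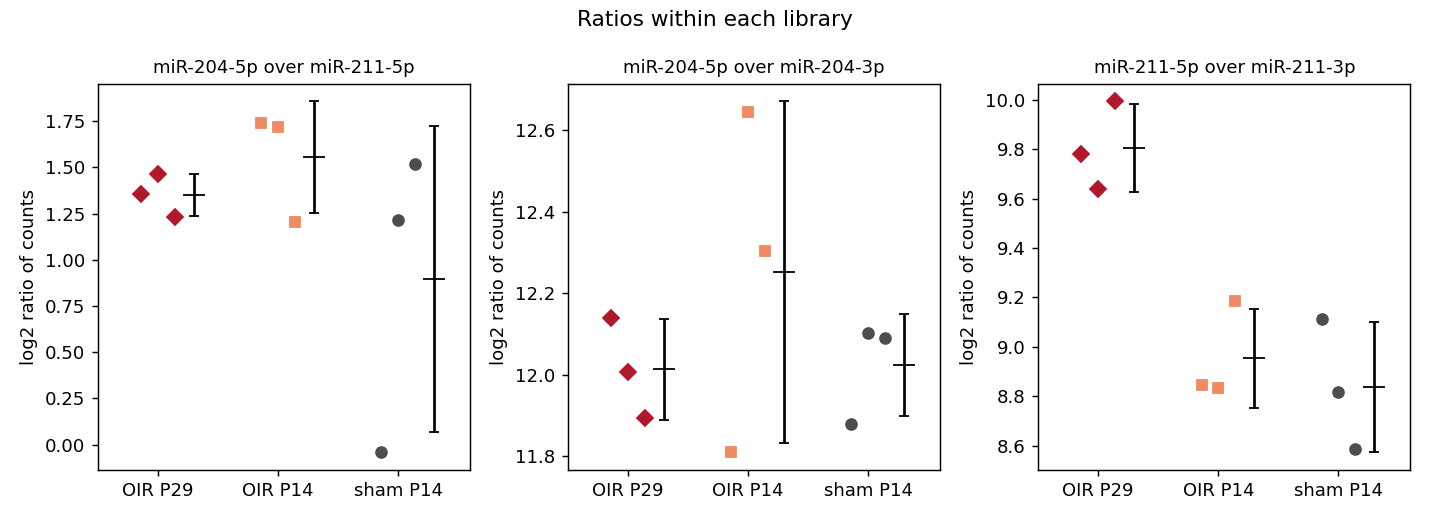
Log2 ratios of counts within each library (vertical axes, which do not start at 0) for miR-204-5p over miR-211-5p, miR-204-5p over miR-204-3p and miR-211-5p over miR-211-3p, with group mean and SD (n = 3 each). Only in the right panel do the OIR P29 libraries lie apart from all others, and sham P14 library 25 is the lowest point of the left panel.

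For scale, the same arm ratio was computed for all hairpins named with a 5p and a 3p arm whose arms both averaged at least 50 reads. Between OIR P29 and OIR P14, 74 hairpins qualified, with a median absolute difference of 0.23 in log2(5p/3p) and 32.4% with groups that did not overlap. In that set miR-211 (0.85) had the highest positive difference and ranked 3rd by size in either direction, and miR-204 (-0.24) stood 34th by size. Between OIR P14 and sham P14, 69 hairpins qualified, 5.80% had groups that did not overlap, and miR-211 (0.12) stood 44th by size. miR-204 did not qualify there because of the low count of its 3p arm. This set of hairpins was chosen after the ratio of miR-211 had been seen.

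**Figure D4:**
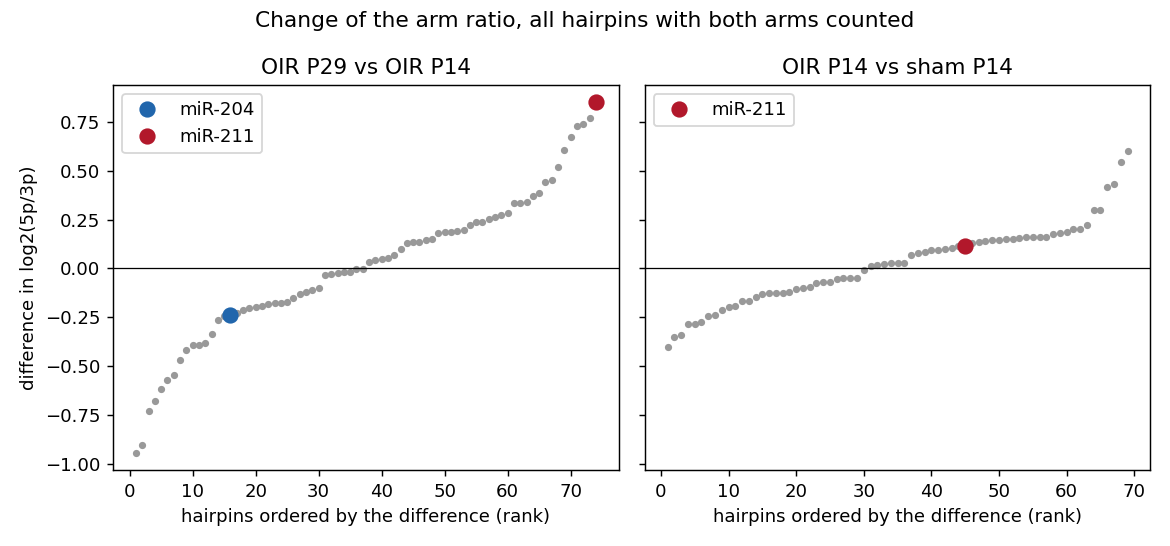
Difference in the mean log2(5p/3p) ratio (vertical axis) of all qualifying hairpins, ordered by that difference (horizontal axis, rank), for OIR P29 minus OIR P14 (left, 74 hairpins) and OIR P14 minus sham P14 (right, 69 hairpins). miR-211 is the rightmost point of the left panel, at 0.85, and lies in the middle range of the right panel, at 0.12.

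The miRNAs most like each member over the 9 libraries were sought by the Pearson correlation of log2(CPM + 1), among 247 other miRNAs with a mean of at least 10 CPM. These values describe 9 libraries that share groups and depth, and no p is given. The closest to miR-211-5p were miR-29a-3p (r = 0.99), miR-29c-3p (0.99), miR-22-3p (0.98), miR-29b-3p (0.98) and miR-101a-3p (0.97), all higher in OIR P29 than in OIR P14. miR-29a-3p, for example, averaged 527 CPM in OIR P29, 71.7 CPM in OIR P14 and 81.2 CPM in sham P14. The closest to miR-204-5p had lower values of r, with miR-23a-3p (r = 0.80), miR-21-3p (0.79), miR-194-5p (0.75), miR-192-5p (0.72) and miR-3068-3p (0.72).

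These 5 depend on sham P14 library 25. Over the 8 libraries without it the closest to miR-204-5p were miR-425-5p (r = 0.97), miR-27b-3p (0.95), miR-3068-3p (0.93), miR-22-3p (0.93) and miR-26a-5p (0.93), and miR-23a-3p ranked 29th. For miR-211-5p the first 4 kept their ranks without that library, and miR-101a-3p ranked 7th.

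miR-204-5p and miR-211-5p had r = 0.56 with each other over 9 libraries, which ranked miR-211-5p 35th for miR-204-5p and miR-204-5p 78th for miR-211-5p. Without sham P14 library 25 their r was 0.86, with ranks of 17th and 45th. miR-211-5p and miR-211-3p had r = -0.44. The closest to miR-211-3p were miR-103-3p (r = 0.82), miR-666-3p (0.77), miR-431 (0.73), miR-376a-3p (0.72) and miR-3099 (0.70). miR-204-3p lay below 10 CPM and was not compared.

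Markers of other epithelia of the eye were examined beside the members, since pigment epithelium or lens could adhere to a dissected retina. Of the 11 listed miRNAs (miR-184, miR-187, miR-205, the miR-200 family, miR-203 and miR-31a) 10 had a row in the tables. They gave 11 mature arms, of which 7 were tested for OIR P29 against OIR P14. Of these 7, 1 was called higher, miR-187-3p (log2 fold 0.78 ± 0.11 SE, edgeR adjusted p = 0.00156), where 22.9% of all miRNAs tested were. The median log2 fold of these 7 was 0.78, against -0.01 over all 424 miRNAs, and it was 0.45 without OIR P29 library 47, where the median over all miRNAs was 0.04. Without that library 2 of the 7 were called higher, miR-187-3p and miR-31a-5p, and miR-184 had a log2 fold of -0.77. Without OIR P29 library 20, 3 of the 7 were called higher, and without OIR P29 library 21, 4 were. Leaving out any 1 OIR P14 library kept 1 call. The summed level of the list was 87.8, 117 and 2057 CPM in OIR P29 and 77.6 to 112 CPM in OIR P14. The library with 2057 CPM was 47, through miR-184, a miRNA of cornea, lens and pigment epithelium, which stood at 1930 CPM there, against 13.8 and 35.4 CPM in the other OIR P29 libraries. OIR P29 library 47 had the lowest miR-204-5p level of OIR P29 (21855 CPM) and the lowest miR-211-5p level (9299 CPM). Without library 47 the log2 folds over OIR P14 were 0.64 ± 0.15 SE for miR-204-5p (edgeR adjusted p = 0.0130) and 0.80 ± 0.06 SE for miR-211-5p (0.000293).

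At P14 edgeR called 1.69% of all miRNAs tested and had 9.16% at an unadjusted p under 0.05. Of the epithelial list 6 arms were tested and 0 were called by edgeR, DESeq2 or limma-voom (1 at an unadjusted p under 0.05 in each, miR-203a-3p). These arms had a median log2 fold of 0.36, against -0.03 over all 415 miRNAs. Their summed level was 77.6 to 112 CPM in OIR P14 and 69.5 to 185 CPM in sham P14. Sham P14 library 25, low in miR-204-5p, had the lowest sum (69.5 CPM), close to the 72.1 CPM of library 27, which was not low in miR-204-5p. The order of these sums came with miR-184, at 18.8, 27.6 and 141 CPM in sham P14 libraries 25, 27 and 51. In the same order miR-31a-5p stood at 20.5, 19.1 and 23.2 CPM and miR-187-3p at 15.8, 14.2 and 10.4 CPM. Neither of these was lowest in library 25. Of the 11 arms, 1 was at 0 in OIR P14 library 12 and none was at 0 in any other library. The part of epithelial tissue in the levels of miR-204 and miR-211 was not tested.

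**Figure D5:**
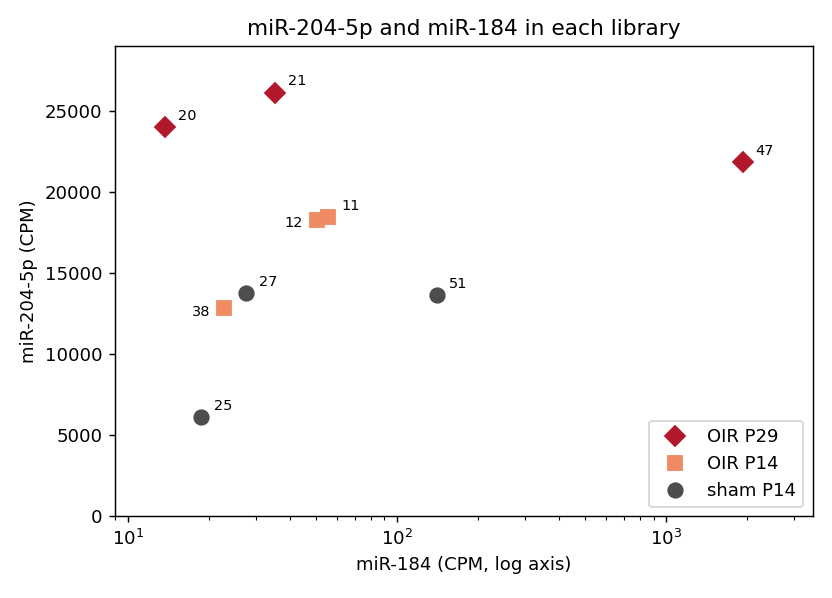
miR-204-5p (vertical axis, CPM from 0) against miR-184 (horizontal axis, CPM on a log scale) in each of the 9 libraries, labelled by library code. OIR P29 library 47 has 1930 CPM of miR-184 and the lowest miR-204-5p level of its group.

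Other marker lists were examined in the same way. Their counts of calls stand beside the shares over all miRNAs tested. For OIR P29 against OIR P14 edgeR called 22.9% higher and 23.8% lower. For OIR P14 against sham P14 it called 1.69%, all lower, and had 9.16% at an unadjusted p under 0.05. Of 10 tested arms of the Müller glia list (miR-9a, miR-125b, miR-135a, miR-99b and miR-100), edgeR called 2 higher and 4 lower in OIR P29 than in OIR P14. miR-125b-5p had a log2 fold of 0.48 ± 0.14 SE (edgeR adjusted p = 0.0275) and miR-9a-5p of -0.41 ± 0.07 SE (0.00237). The summed level of this list was 14120 to 15493 CPM in OIR P29, 16932 to 19463 CPM in OIR P14 and 15785 to 17814 CPM in sham P14. Fewer of these arms were called when any 1 library was left out, 2 to 4 in place of 6.

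Of 5 photoreceptor arms (miR-182, miR-183 and miR-96), 1 was called higher and 3 lower in OIR P29 than in OIR P14. Their sum was 609117 to 640960 CPM in OIR P29, 720313 to 886757 CPM in OIR P14 and 675220 to 736964 CPM in sham P14. These sums carry the TMM factors and are not shares of reads. As a plain share of reads, miR-182 alone took 59.3% to 61.7% in OIR P29 and 65.1% to 68.1% in OIR P14. Its share in sham P14 was 62.5% to 64.3%. Of 8 neuronal arms (miR-124, miR-128, miR-129 and miR-138), 3 were called higher and 1 lower in OIR P29, where 22.9% and 23.8% of all miRNAs tested were. Among the called arms miR-129-2-3p and miR-129-1-3p were nearly equal in level and may share reads. The sum of the neuronal list was 7157 to 8425 CPM in OIR P29, 5099 to 7110 CPM in OIR P14 and 5047 to 6743 CPM in sham P14. Most of it was miR-124-3p, with means of 6772 CPM in OIR P29 and 5196 CPM in OIR P14. That arm was not called by edgeR (adjusted p = 0.0520), while DESeq2 and limma-voom each called 5 of the 8 arms, that one included.

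Between OIR P14 and sham P14, edgeR called 0 arms of the Müller glia, photoreceptor and neuronal lists, and so did DESeq2 and limma-voom. At an unadjusted p under 0.05 edgeR had 0 of 10 Müller glia arms, 1 of 5 photoreceptor arms and 0 of 8 neuronal arms.

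The vessel and red blood cell arms tested were called in both comparisons, except 1 mural cell arm at P14. Both arms of miR-126a, an endothelial miRNA, were called higher in OIR P29 than in OIR P14 and lower in OIR P14 than in sham P14, with sums of 480 to 535 CPM in OIR P29, 165 to 304 CPM in OIR P14 and 629.7 to 728 CPM in sham P14. Of the mural cell arms (miR-143 and miR-145) 3 of 3 were higher in OIR P29 and 2 of 3 lower in OIR P14, with sums of 1478 to 1546 CPM in OIR P29, 298 to 605 CPM in OIR P14 and 1159 to 1293 CPM in sham P14. Of the red blood cell arms (miR-451 and miR-144) 3 of 3 were higher in OIR P29 and 1 of 1 lower in OIR P14, with sums of 12.8 to 21.6 CPM in OIR P29, 1.78 to 2.26 CPM in OIR P14 and 4.29 to 9.96 CPM in sham P14. Of the leukocyte arms (miR-142, miR-150 and miR-223) 1 of 4 was higher in OIR P29 and 1 of 3 lower in OIR P14, with sums of 68.4 to 81.3 CPM in OIR P29, 37.1 to 55.7 CPM in OIR P14 and 45.3 to 57.8 CPM in sham P14. The called leukocyte arm was miR-150-5p in both comparisons, and the list's median log2 fold was -0.0015 at P29 and 0.38 at P14, where the sums overlapped. The edgeR calls of miR-126a, the mural cell list and the red blood cell list at P14 were lost without sham P14 library 27 or 51, with median log2 folds of -1.22 or lower. That of the red blood cell arm was also lost without OIR P14 library 38, and 1 mural cell arm was called without OIR P14 library 11, OIR P14 library 12 or sham P14 library 25. No arm of these 7 lists was at 0 in any library. The part of such shifts in the levels of miR-204 and miR-211 was not tested.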

How the data were processed

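Retinal small RNA was sequenced in single-end reads of 50 bp, per the labels' protocols. The sources used here do not name an aligner, a counter, a genome build or a miRNA annotation. Per the submitters' processing notes, limma was used. The authors deposited 2 tables of read counts per mature miRNA, each with their own log2 fold and FDR (an adjusted p-value), per the file headers. Both list the same 465 miRNAs. They have 12 library columns for 9 libraries, since the counts of OIR P14 stand in each (1395 of 1395 values identical). Columns are headed by codes. Codes 11, 12 and 38 occur in each table and were taken as OIR P14, codes 25, 27 and 51 of the first table as sham P14, and codes 20, 21 and 47 of the second as OIR P29. Which code is which numbered replicate is not known here.

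The 6 libraries of a comparison were fitted alone in R 4.3.3 with edgeR 4.0.16 (TMM, filterByExpr with minimum count 10 and minimum total 15, quasi-likelihood F test, Benjamini-Hochberg adjustment, threshold 0.05). The filter kept 415 miRNAs at P14 and 424 for OIR P29 against OIR P14. SE is the size of the log2 fold over the square root of F. Ratios had 0.5 added to each count and were tested with an exact permutation test (scipy 1.17.1). Alternatives used DESeq2 1.42.0, limma 3.58.1, other scalings, no filter and each library left out. The pipeline was tested on simulated data. Replicates differed beyond sampling noise (83.0 to 244 for chi-square over its degrees of freedom). This value cannot tell biological from technical spread. Each library was kept as a replicate. Intervals cover counting error only. Sequences come from RefSeq tables of build GRCr8, where 423 of the 465 miRNAs matched. Named miRNAs are the members, their neighbours in rank, the 5 most correlated for each member above 10 CPM, the marker lists and miR-182. Members, lists and tests were chosen with earlier results of these data known.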

Additional observations from a re-analysis of the deposited data

How the results depend on the processing

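When total counts alone set the scale, the median log2 fold over all miRNAs was -0.21 in place of -0.03 at P14 and 0.25 in place of -0.01 for OIR P29 against OIR P14. In that scaling the log2 fold of miR-211-5p at P14 was -0.18 in place of 0.00, that of miR-211-3p at P29 was 0.16 in place of -0.12, and miR-204-3p at P29 passed the test (0.996). miR-204-3p at P29 also passed with limma-voom (0.78), in the authors' deposited table (0.79) and with 8 libraries fitted together without sham P14 library 25 (0.76), an alternative chosen after seeing the data. Leaving out 1 library gave it 0.51 to 1.14, past the threshold without OIR P14 library 11 (edgeR adjusted p = 0.00515). The call of miR-204-5p at P29 was lost with all 9 libraries fitted together (log2 fold 0.57), in the authors' deposited table (0.55) and with quantile normalization (0.00). Quantile normalization sets that value by construction, because miR-204-5p ranked 4th in all 6 libraries. Leaving out 1 library gave 0.35 to 0.66, called each time. For miR-211-5p at P14 the sign was negative with quantile normalization (-0.071), in the authors' deposited table (-0.017), without sham P14 library 51 (-0.092) and without OIR P14 library 38 (-0.0083), in a leave-one-out range of -0.092 to 0.074. miR-211-3p at P29 had -0.23 to 0.040 when 1 library was left out, positive without OIR P29 library 47. The log2 ratio of miR-211-5p over miR-211-3p at P14 had -0.010 to 0.25, negative without sham P14 library 51.

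Over all miRNAs at P14, edgeR called 7, DESeq2 14, quantile normalization 2 and the leave-one-out fits 1 to 7, with 1 without sham P14 library 27 and 1 without 51. The cause of these shifts was not tested. Of 209 alternative values, 187 kept their direction and side of the threshold, or stayed within 1 SD (levels) or within 1.5 times (counts of miRNAs called). For the ratios only the direction could change, since their permutation test cannot give a p below 0.1. A fold that changed in size alone counts as kept. An example is miR-204-5p at P14, with 0.29 without sham P14 library 25 and 0.58 with all libraries. Leaving each library out of the marker lists, and library 25 out of the correlations, was also chosen after seeing the data. No paired analysis was possible because the columns carry library codes and no replicate numbers. Depth limits the 3p arms, with 18 to 174 reads a library, more than the 5p arms.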
